A study of Mus musculus with 24 samples.

Results

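Mammary glands of sham-exposed female BALB/c mice were compared 8 weeks and 4 weeks after the sham exposure. The 6 arrays, 3 at each time, were chosen from the 24 of the study by the strain, exposure and time in their labels. The study profiled coding RNAs and long noncoding RNAs (lncRNAs) after low-dose ionizing radiation (LDIR), a whole-body X-ray dose of 10 cGy, in BALB/c and SPRET/EiJ mice. Sham mice went through the exposure without the dose, and all mice were 8 to 9 weeks old at that time, so that the glands came from mice of about 12 to 13 weeks and about 16 to 17 weeks. BALB/c is an inbred strain that carries variants of the DNA repair gene Prkdc with reduced activity. Each array was hybridised with RNA of whole gland, and the replicates (A, B and C) are described as biological replicates by the study. The oestrous stage and the hour and day of collection are not given in the labels, so age cannot be told apart from any of these that differed between the collections.

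The mammary gland of a virgin mouse is a tree of epithelial ducts, with an inner luminal layer and an outer myoepithelial layer, embedded in a pad of white fat. In young adults the ducts have reached the edge of the fat pad, and further growth of side branches follows the ovarian cycle, in which oestrogen and progesterone act on luminal cells that in turn signal to their neighbours through factors such as amphiregulin (Areg). Brown-like adipocytes, which burn fat for heat, are scattered in the mouse mammary fat pad and are known to become fewer with age. The gland also holds vessels, macrophages and a lymph node, and lies next to skin and body-wall muscle.

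Levels are given as log2 intensity relative to the 75th percentile of the array, so a level of 0 is that of a fairly bright probe. A probe counts as above background where the scanner software called it well above background. Of all probes, 66.3 to 70.8% were above background on the 4-week arrays and 69.9 to 71.7% on the 8-week arrays. The arrays were not evenly spread over slides, since slide 1 held 4-week replicates A and B while slide 2 held 4-week replicate C and the 8-week arrays. Replicate A at 8 weeks stood apart at the dim end. The median processed intensity of its negative controls, where the software puts a small positive floor, was 4.86 against 1.82 to 2.05 on the other 5 arrays, and their median after background subtraction was -13.2 against -3.08 to -2.21. Markers of the gland were detected. All 14 luminal epithelial genes, all 11 basal and myoepithelial genes and all 14 white adipocyte genes on the marker lists were above background on all 6 arrays. So were all 13 endothelial and all 7 Schwann cell genes, and 72 to 76.8% of coding probes were above background on each array. Detection of these lists is therefore no test of the tissue label.

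Markers of neighbouring tissues differed between the arrays, and these arrays are named before the results that they touch. T lymphocyte genes (12 measured) had a mean level of 3.31 on 8-week replicate A, and of -2.24 to -1.14 on the other 5 arrays. B lymphocyte genes (11 measured) followed the same array, at 2.45 on 8-week replicate A against -3.20 to -2.72 elsewhere. Neither list held a gene past the thresholds used below, and without that array 1 T and 4 B lymphocyte genes passed them. Skeletal muscle genes (17 measured) had mean levels of 2.17, -0.25 and 1.45 on the 8-week arrays and -0.48, -3.02 and -2.72 on the 4-week arrays. The mean was highest on 8-week replicate A, and of the 4-week arrays it was highest on replicate A. On the sham arrays at 2 weeks the same list had means of -2.97, -2.79 and 2.69. In bulk tissue, fewer cells of a type and less RNA per cell cannot be told apart.

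Between 4 and 8 weeks a large share of the array moved. At the thresholds of the study, which ask for an unadjusted p below 0.05 together with a difference over 1.5-fold, 7633 of 55681 probes passed (13.7%) in a limma fit of the 6 arrays, 5.73% of all probes higher and 7.98% lower at 8 weeks. "Rose" and "fell" below mean that a probe passed these thresholds. Of the 39430 coding RNA probes, 2716 were higher (6.89%) and 2984 lower (7.57%), 14.5% in all. Of the 16251 lncRNA probes, 472 were higher (2.9%) and 1461 lower (8.99%), 11.9% in all, so that 75.6% of the lncRNA calls were falls, against 52.4% of the coding calls. With normexp background correction 90.5% of the lncRNA calls and 61.7% of the coding calls were falls. No probe reached an adjusted p under 0.05 (Benjamini-Hochberg over all probes), the smallest being 0.0849, while 7864 probes had an unadjusted p under 0.05. Without 8-week replicate A, the array with the higher floor, 10881 probes passed the thresholds and 1266 reached an adjusted p under 0.05. The adjusted p-values of single genes below are therefore all above 0.05.

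Gene lists were read with 1 probe for each gene, the brightest over the series. Over all 22289 genes, 7.22% rose and 6.79% fell (14% in all), and the median change was 0.07 on the log2 scale. The shares of each list are to be read against these values.

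**Figure D1:**
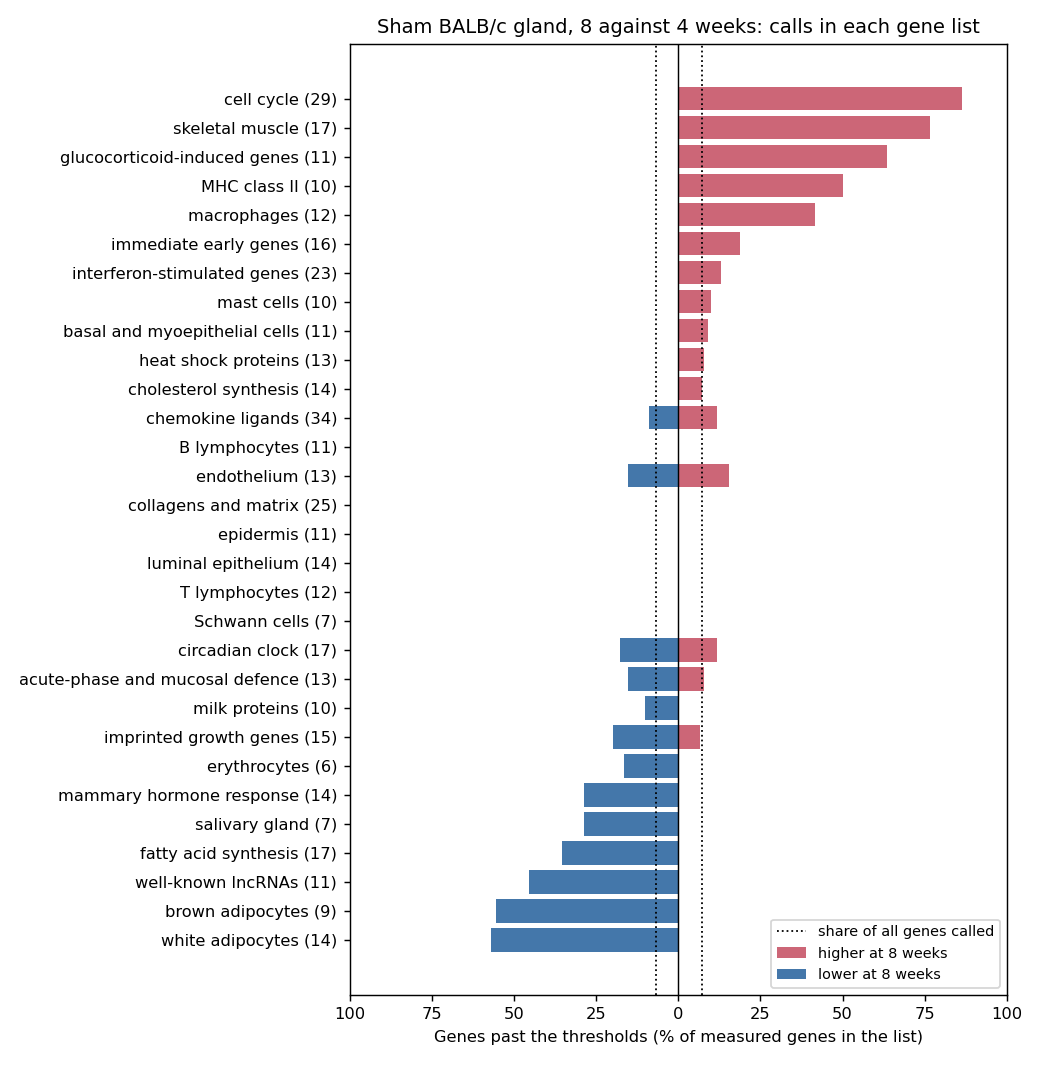
Share of the measured genes of each list that rose (right) or fell (left) between 4 and 8 weeks in sham BALB/c gland, past both thresholds; dotted lines give the shares over all 22289 genes (7.22% and 6.79%), and numbers in brackets are genes measured. Cell cycle, muscle and glucocorticoid-induced genes lie furthest to the right and adipocyte genes furthest to the left.

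Genes of cell division rose together. Of 29 cell cycle genes, 25 rose and 0 fell, with a median change of 1.74. The rises ran from 1.05 for Mcm4, a subunit of the helicase that opens replication origins, to 3.09 for Bub1b among the genes above background at both times. The 4 genes that did not pass were Pcna (0.77), E2f1 (0.36), Ccne1 (-0.29) and Tyms (-0.29), all of which act at or near the start of DNA replication. Other replication genes did pass, among them Mcm2 (1.58), Mcm3 (1.51), Mcm5 (2.44), Mcm6 (1.83) and Rrm2 (1.65).

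Bub1b encodes a checkpoint protein that holds back anaphase until chromosomes are attached (probe at chr2:118466830-118466889, mm9, + strand). Its level was -4.35, -5.04 and -4.15 at 4 weeks and -1.36, -2.10 and -0.80 at 8 weeks. The groups did not overlap, and the change was 3.09 (SE 0.43, adjusted p = 0.0895). Its partner kinase Bub1 read -4.80, -6.50 and -4.55 against -2.75, -2.96 and -1.29, a change of 2.95 (SE 0.68, adjusted p = 0.163). Top2a, the topoisomerase that untangles replicated DNA, went from -3.05, -4.78 and -2.76 to -0.73, -1.48 and 0.41 (2.93, SE 0.71, adjusted p = 0.174). Of these genes, 4-week replicate B was lowest and 8-week replicate C highest.

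Mki67, the proliferation marker, read 0.09, -0.28 and 0.98 at 4 weeks and 1.82, 1.20 and 2.99 at 8 weeks, a change of 1.74 (adjusted p = 0.256). Aurkb, a kinase of the chromosomal passenger complex, was above background on no 4-week array and on all 3 at 8 weeks, and was at least 4.30-fold higher at 8 weeks. This bound sets the 8-week mean against the lowest signal that counted as above background on each 4-week array, or the probe's own signal where that was higher, and bounds given below were made the same way. Summed over the list, the signal was 28.1 to 38.8 times the 75th percentile at 4 weeks and 60.5 to 137 times at 8 weeks. The count of 25 was 26 without 8-week replicate A, the array with lymphocyte RNA, and 19 at the lowest, without 4-week replicate B. A fit of the 24 arrays that held slide as a term gave 13 rises and 1 fall. Of the 39430 coding probes, 1752 were higher and 2663 lower past the thresholds in that fit, against 2716 and 2984 in the fit used above. The list counts given with the slide term, here and below, are to be read against this lower background, which counts probes and not genes. Since the sham 4-week group alone spanned slides 1 and 2, the change in such a fit is that of the 8-week arrays against 4-week replicate C.

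The promoters of the cell cycle list were read in the RefSeq table of the mouse (GRCm38.p6). The CHR element (TTTGAA or TTCGAA) and the CCAAT box are short motifs known from promoters of mitotic genes. Within the 250 bases before the start, either strand counted, 10 of 24 list promoters in the table held a CHR motif (41.7%) and 19 of 24 a CCAAT box (79.2%). Over all 27025 promoters the shares were 17.4% and 34.5%. Both motifs stood in 41.7% of the list's promoters and in 6.21% of all. These shares use no level of the arrays and take list members whether or not they rose. They are a property of the list and no evidence on the rise. The motifs do not overlap in their letters, and a match is a string of letters, not a binding site. The last 150 bases before the start are shown for the named cell cycle genes in the table, with matches in capitals.
Top2a (chr11:99024190-99024339, - strand): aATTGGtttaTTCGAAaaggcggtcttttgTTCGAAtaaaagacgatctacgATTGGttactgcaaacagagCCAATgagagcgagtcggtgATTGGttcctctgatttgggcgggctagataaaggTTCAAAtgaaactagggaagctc
Bub1 (chr2:127831860-127832009, - strand): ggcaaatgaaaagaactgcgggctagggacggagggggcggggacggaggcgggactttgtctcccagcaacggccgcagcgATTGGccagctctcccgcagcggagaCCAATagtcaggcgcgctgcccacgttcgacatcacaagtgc
Bub1b (chr2:118598061-118598210, + strand): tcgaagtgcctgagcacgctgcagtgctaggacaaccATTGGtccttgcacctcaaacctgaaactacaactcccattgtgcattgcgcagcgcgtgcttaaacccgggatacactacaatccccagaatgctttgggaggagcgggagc
Top2a held both motifs in this window, and Bub1 and Bub1b held the CCAAT box alone.

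Genes of fat fell. Of 14 white adipocyte genes 8 fell and 0 rose (median -0.90), and of 9 brown adipocyte genes 5 fell and 0 rose (median -1.43). Cox8b, a subunit of cytochrome c oxidase found in brown fat and muscle (chr7:148084852-148084911, - strand), read 6.38, 6.17 and 5.69 at 4 weeks and 3.22, 3.39 and 3.92 at 8 weeks. The groups lay apart by more than the spread within either, with a change of -2.57 (SE 0.31, adjusted p = 0.0849). Ppargc1a encodes the co-activator PGC-1α, which drives mitochondrial biogenesis (chr5:51848928-51848987, - strand). It read 0.64, 0.25 and 0.30 against -2.42, -1.85 and -1.72 (change -2.40, SE 0.28, adjusted p = 0.0849). Cidea, a lipid droplet protein, fell by 2.45 and Dio2, the deiodinase that makes active thyroid hormone, fell by 1.43.

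Ucp1, the uncoupling protein that defines brown adipocytes, read 1.80, 0.26 and -0.20 at 4 weeks and -3.62, -2.40 and 0.68 at 8 weeks. The groups overlapped through 8-week replicate C, and the change of -2.40 did not pass (adjusted p = 0.437). Among white adipocyte genes, Adrb3, the β3-adrenergic receptor through which cold and fasting signals reach fat, fell most. Its level was 6.98, 7.43 and 6.81 against 4.76, 5.62 and 5.64, a change of -1.73 (SE 0.34, adjusted p = 0.135). Retn (resistin, -1.19), Pparg (the master regulator of fat cell formation, -1.11), Plin1 (a lipid droplet coat protein, -1.03), Cfd, Adipoq, Fabp4 and Cidec also fell, the smallest change being that of Cidec (-0.87). Lep, the hormone leptin, was the 1 member that was higher at 8 weeks, by 0.32, and did not pass. Cfd (-1) and Fabp4 (-0.89) are among the brightest genes on the array. Other genes of that range fell as well, such as Kctd14 (-0.73), Elk1 (-0.72), Med16 (-0.67) and Cxcl11 (-0.73). At the mean level of Adipoq (7.77, change -0.91), Gapdh differed by 0.05 and did not pass. The part of a shift among bright probes in the white adipocyte count was not tested.

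The summed signal of the white adipocyte list was 3900 to 5050 at 4 weeks and 1800 to 2730 at 8 weeks, and that of the brown list 88.1 to 165 and 15.3 to 38.0, so neither overlapped. Both were lowest on 8-week replicate A, which also held the lymphocyte RNA and had the highest mean level of the muscle genes. Without that array 7 white and 5 brown adipocyte genes fell. Without 4-week replicate A, 3 white and 5 brown adipocyte genes passed. With the slide term in the 24-array fit, 2 genes of each list fell.

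Genes of fatty acid synthesis went the same way in part, with 6 of 17 falling, 0 rising and a median of -1.06. Those that fell were Elovl3 (an elongase of brown fat, -2.86), Insig1 (a brake on SREBP processing, -1.71), Me1 (malic enzyme, which supplies NADPH, -1.69), Acaca (acetyl-CoA carboxylase, -1.41), Srebf1 (-1.28) and Elovl5 (-0.63). The Me1 groups overlapped, and its other probes, both brighter on these arrays, differed by -1.54 and -1.61 without passing. Acaca read 8.05, 8.41 and 7.21 at 4 weeks and 5.50, 6.73 and 7.21 at 8 weeks, so that both replicates C read the same. Fasn, the fatty acid synthase, differed by -1.40 without passing. With 8-week replicate A left out 2 fell and 1 rose, and without 4-week replicate A 2 passed. In the 24-array fit with the slide term 0 of the 17 passed. Cholesterol synthesis genes showed no such shift, with 1 of 14 rising (Srebf2, 1.20) and a median of -0.10.

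**Figure D2:**
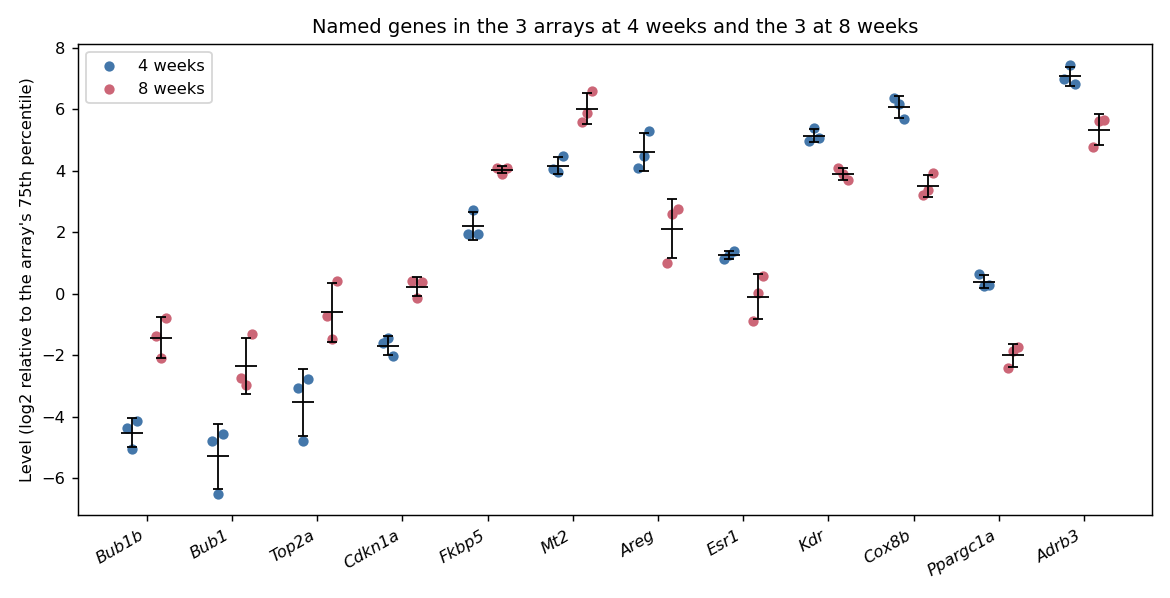
Level of 12 named genes on the 3 sham arrays at 4 weeks (blue) and the 3 at 8 weeks (red), as log2 relative to the array's 75th percentile; points are arrays and bars the mean and SD. The 2 groups of points lie apart for every gene shown, higher at 8 weeks for the 6 genes at the left and lower for the 6 at the right. The genes shown were named for their change on these same arrays.

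Of the mammary hormone response genes 4 of 14 fell and 0 rose, with a median of -0.57. Areg, the oestrogen-induced EGF receptor ligand that drives ductal growth (chr5:91570090-91570149, + strand), read 4.08, 4.48 and 5.29 at 4 weeks and 1.02, 2.59 and 2.76 at 8 weeks. This was a fall of 2.49 (SE 0.57, adjusted p = 0.161) with no overlap. Esr1, the oestrogen receptor, read 1.15, 1.26 and 1.40 against -0.88, 0.02 and 0.57 (change -1.36, adjusted p = 0.227). Of its other probes, 2 differed by -0.42 and -0.02 without passing, and 1 was above background on all 3 arrays at 4 weeks and on none at 8 weeks. Fgf10, a stromal growth factor (-1.03), and Prlr, the prolactin receptor (-0.86), also fell. Without 4-week replicate B, 2 of the 14 genes passed, and with the slide term in the 24-array fit 1 rose and 2 fell.

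Genes of the progesterone response did not pass. Pgr, the progesterone receptor, read 0.07, 1.61 and 1.21 at 4 weeks and 0.26, 0.41 and 0.27 at 8 weeks, and its change of -0.65 did not pass (adjusted p = 0.580). Its target Wnt4 differed by 0.03, with a sign that turned under other settings. Tnfsf11 (RANKL), the main paracrine signal of progesterone, read -0.43, -3.89 and -2.78 against -0.57, -1.12 and 1.96 (2.45, adjusted p = 0.420). Greb1, an oestrogen target, differed by 0.31, and its other probe rose by 0.96. Calca, which encodes calcitonin, ranged from -4.04 to -1.23 at 4 weeks and from -3.18 to 3.88 at 8 weeks.

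Of the milk protein genes 1 of 10 passed, Btn1a1 (butyrophilin, which coats milk fat), which fell by 0.70, while its other, dimmer probe differed by 0.66 without passing. Leaving out 8-week replicate A, 3 of the 10 passed, and without 4-week replicate B 0 of the 10. The caseins were raised on single arrays. Csn2 (β-casein) was above background on no 4-week array and read -6.51, 4.05 and -4.58 at 8 weeks. Wap (whey acidic protein) was above background on 1 array at each time. Luminal keratins did not pass, with changes of 0.89 for Krt8, 0.01 for Krt18 and 0.93 for Krt19, and 0 of 14 luminal genes passed.

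Basal genes were higher on 2 of the 3 arrays at 8 weeks. Mylk, a kinase of smooth muscle and myoepithelial contraction, was the 1 of 11 that rose (1.32), and its other probe differed by -0.30. Acta2, smooth muscle actin, read 4.32, 4.10 and 4.59 at 4 weeks and 4.11, 6.79 and 6.05 at 8 weeks. Without 8-week replicate A, 8 of the 11 basal genes rose (median 1.42) and 5 of 14 luminal genes rose (median 0.83), beside 10% of all genes that rose without it, 8.88% that fell and 18.9% in all. That array thus decided both counts.

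Glucocorticoid-induced genes rose. Of 11 genes induced by glucocorticoids 7 rose and 0 fell, with a median of 0.94. Fkbp5, a co-chaperone of the glucocorticoid receptor (chr17:28536060-28536119, - strand), read 1.96, 2.73 and 1.94 at 4 weeks and 4.10, 3.91 and 4.10 at 8 weeks (1.83, SE 0.29, adjusted p = 0.110). Cdkn1a, the cell cycle inhibitor p21 (chr17:29237377-29237436, + strand), went from -1.60, -1.43 and -2.02 to 0.42, -0.12 and 0.40 (1.92, SE 0.28, adjusted p = 0.0992), while 2 much dimmer probes of the gene differed by 0.37 and 0.92 without passing. The metallothionein gene Mt2 rose by 1.86 and the EGF receptor inhibitor Errfi1 by 1.71.

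The groups of these 4 genes did not overlap, but the 4 were named for the largest changes of the list, which favours such a separation. Sgk1, Mt1 and Tsc22d3 rose by 0.85 to 1.07, and Klf9 (-0.08), Angptl4 (0.26), Zbtb16 (0.61) and Pdk4 (0.73) did not pass. The count was 9 without 8-week replicate A, and 3 with the slide term in the 24-array fit. Of 16 immediate early genes, which respond to stimuli and to handling within minutes, 3 rose, namely Junb (1.16), Ier2 (1.11) and Myc (1.06), and 0 fell. The slide term in the 24-array fit left 0 of these 16 past the thresholds. Of 13 heat shock genes Cryab rose (1.19), with 0 falling, and without 8-week replicate A 3 passed.

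The clock genes split. Arntl (1.39) and Nfil3 (1.1) rose, and Bhlhe40 (-1.1), Nr1d1 (-0.95) and Hlf (-0.83) fell, of 17 genes with a median of -0.45. Arntl activates Nr1d1 transcription, and the 2 proteins peak at opposite times of day. Nr1d1 read 2.03, 1.5 and 1.59 at 4 weeks and 0.13, 1.1 and 1.06 at 8 weeks, and Arntl read -3.01, -2.36 and -2.71 against -0.74, -0.68 and -2.50. Replicate C at 8 weeks therefore lay near the 4-week arrays for Arntl, whose call was lost with any of 5 arrays left out. Without 4-week replicate A the count of 5 was 2. The part of collection time in these values was not tested.

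Among immune genes, MHC class II and macrophage genes rose. Of 10 MHC class II genes, which present antigen to helper T cells, 5 rose (median 1.49). Cd74, the invariant chain, read 4.63, 4.03 and 4.02 at 4 weeks and 6.81, 5.37 and 4.94 at 8 weeks. H2-Aa rose by 1.75, H2-DMa by 1.5, H2-Eb1 by 1.40 and H2-Ab1 by 1.27. All of these were highest on 8-week replicate A, the array with T and B lymphocyte RNA. Without it 6 of the 10 rose, with a median of 0.91, and without 4-week replicate C 0 of the 10 rose. The 24-array fit with the slide term also gave 0 of the 10.

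Of 12 macrophage genes 5 rose and 0 fell (median 0.83). C1qa, a chain of complement C1q, read 2.81, 1.62 and 2.21 against 3.05, 3.61 and 3.62 (1.21, adjusted p = 0.244). C1qb (1.13), Csf1r (the receptor for the macrophage growth factor CSF1, 0.98, with its other probes at 1.41 and -0.20), Cd68 (0.90) and Mertk (0.85) rose too. Emr1, which encodes the F4/80 antigen, differed by 0.26, Mrc1 by 0.09 and Itgam by 0.01. The mean level of the list was 1.76, 0.89 and 1.52 at 4 weeks and 1.89, 2.24 and 2.16 at 8 weeks. Leaving out 8-week replicate B lowered the count to 2, and with the slide term in the 24-array fit it was 3.

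Of 34 chemokine ligands 4 rose and 3 fell. Ccl8 (1.26), Ccl12 (1.34), Cxcl16 (1.12) and Ccl3 (0.93) rose. Ccl28, an epithelial chemokine that draws antibody-secreting cells into mucosa and gland, read -2.14, -1.68 and -1.26 at 4 weeks and -3.65, -4.07 and -3.40 at 8 weeks (change -2.01, SE 0.33, adjusted p = 0.111). Ccl25 (-1.17) and Cxcl11 (-0.73) also fell. Cxcl11, at a mean level of 9.09, is one of the bright genes named above that fell. Its probe was not screened for the runs of G and T described below. The part of either in its fall was not tested. Leaving out 8-week replicate A gave 8 rises and 3 falls, and the 24-array fit with the slide term 0 rises and 3 falls. Of 23 interferon-stimulated genes 3 rose, Oas3 (1.62), Irf7 (1.13) and Oasl1 (0.95). Without 8-week replicate A, 3 of these 23 rose and 3 fell, and without 4-week replicate B 0 passed. The slide term in the 24-array fit left 1 rise. Of the acute-phase and mucosal defence genes, Saa2, serum amyloid A, was at least 3.22-fold higher at 8 weeks, and Cp, ceruloplasmin, fell by 0.75. Of the 13 genes of that list 1 rose and 2 fell, the other fall being that of the Pigr probe described below, and without 8-week replicate A 5 passed.

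The vessel genes moved in both directions. Kdr, the main VEGF receptor of endothelium, read 4.98, 5.39 and 5.07 against 4.09, 3.91 and 3.70 (change -1.25, SE 0.24, adjusted p = 0.132), and its second probe changed by -1.26. Flt1 (-0.89) fell too, with other probes at -0.22 and -1.70, while Plvap (0.79) and Eng (0.62) rose, of 13 genes. Without 4-week replicate A 1 of the 13 passed. The calls of Flt1 and Eng were each lost with any of 5 arrays left out. Of the 25 collagen and matrix genes 0 passed, and 7 rose without 8-week replicate A. Imprinted growth genes were led by H19 (1.66), which rose, and Grb10 (-1), Magel2 (-0.72) and Igf2r (-0.60), which fell, of 15 measured. If 8-week replicate A was left out 7 of these passed, and without 4-week replicate C 2. The other, dimmer H19 probe differed by 0.35, and the Igf2r call was lost whichever array was left out. Hdc rose among 10 mast cell genes (1.28), Hemgn fell among 6 erythrocyte genes (-0.65), and Amy1 (-0.99) and Bpifa2e fell among 7 salivary gland genes, Bpifa2e to no array above background, at least 1.24-fold lower. Lists for epidermis (11) and Schwann cells (7) held 0 genes past the thresholds. Without 8-week replicate A, 2 of the mast cell genes, 5 of the erythrocyte genes, 2 of the epidermis genes and 3 of the Schwann cell genes passed. Without 4-week replicate B 0 erythrocyte genes passed, and without 4-week replicate A 1 salivary gland gene.

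The largest single rises were mostly muscle genes. Of the 12 coding genes with the largest rises, chosen among genes above background on all 8-week arrays whose groups did not overlap, Ckm, Tnnt3, Tcap, Actn3, Tnnc2, Mybpc2, Ckmt2, Tnni2, Trim63 and Xirp2 encode proteins of striated muscle. Ckm, muscle creatine kinase, read -0.23, -4.99 and -3.98 at 4 weeks and 2.61, 0.87 and 2.89 at 8 weeks (5.19, SE 1.29, adjusted p = 0.181). In all, 13 of the 17 muscle genes rose (median 3.19), and their summed signal was 13.2 to 65.2 at 4 weeks and 82.3 to 281 at 8 weeks. Without 4-week replicate B the count was 4, and with the slide term in the 24-array fit it was 0. Ckmt2, Trim63 and Xirp2 were each above background on 1 array at 4 weeks, so their ranks rest in part on values at the floor.

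The other 2 were Syt13 and 4930557B15Rik. Syt13, a synaptotagmin, was above background on no 4-week array and read 0.22, -3.64 and -2.88 at 8 weeks, at least 10.6-fold higher. 4930557B15Rik read -6.90, -7.77 and -4.89 against -1.23, -2.02 and -2.64 (4.55, SE 0.79, adjusted p = 0.115). It was above background on 1 array at 4 weeks, and with normexp background correction the change was 1.33. Among the falls, S100g, the calcium-binding protein calbindin-D9k, read -4.05, -0.89 and -0.81 at 4 weeks and was above background on no 8-week array, at least 11.4-fold lower. Its second probe was above background on 2 arrays at 4 weeks and on none at 8 weeks. 1700001D01Rik fell from -1.37, -1.34 and -1.03 to -6.57, -5.03 and -4.75 (change -4.21, SE 0.51, adjusted p = 0.0849). Gm7265 (-3.28), Dscam (a neuronal adhesion molecule, -3.10), 2400009B08Rik (-2.85) and 5031434C07Rik (-2.83) were also among the 12 largest falls.

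Several nuclear noncoding RNAs fell, Airn with very little spread. Of 11 well-known lncRNAs, 5 fell and 0 rose. Airn is a long antisense RNA made from the paternal copy of the Igf2r locus, where it silences Igf2r and its neighbours in cis. Its brightest probe (chr17:12944784-12944843, mm9, + strand) read 2.77, 2.88 and 2.92 at 4 weeks and 0.15, -0.14 and 0.22 at 8 weeks. The change was -2.78 (SE 0.22, adjusted p = 0.0849), with every array within 0.36 of the others of its time. The other 3 Airn probes fell by 1, 1.28 and 1.55.

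The same stretch of chromosome 17 carried 3 lncRNA probes on the same strand between the outermost Airn probes, assigned to chr17:12965849-12968519. Of these, 2 fell by 2.41 and 3.15, and the other, above background on no 8-week array, was at least 3.1-fold lower. Kcnq1ot1, the paternal antisense RNA that silences the Kcnq1 imprinted domain, read 1.54, 1.75 and 1.28 against -0.59, -1.56 and -0.70 (change -2.47, SE 0.34, adjusted p = 0.0888), and its second probe fell by 2.68. Xist, which coats the inactive X chromosome, read 1.62, 2.11 and 1.66 against 0.39, 0.23 and 0.80 (change -1.32, SE 0.27), and its second probe fell by 0.82. Rmrp, the RNA of RNase MRP, fell by 1.53 and Tug1 by 0.83.

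Malat1 and Neat1, which are also nuclear, did not pass, with changes of 0.39 and -0.44. The spliced host transcripts Gas5 (0.36), Snhg1 (0.33) and Snhg3 (0.41) did not pass either. Small nuclear and nucleolar RNAs were looked at after these values had been seen. Rnu1b6, a gene of the U1 spliceosomal RNA (chr3:96177965-96178024, + strand), read 5.03, 5 and 5.32 at 4 weeks and 2.75, 2.42 and 1.84 at 8 weeks. Its change was -2.78 (SE 0.30, adjusted p = 0.0849). Snora47 (chr13:96100607-96100666, + strand) read 0.23, -0.52 and 0.20 against -3.34, -3.47 and -3.48 (change -3.39, SE 0.28, adjusted p = 0.0849). Of the other probes to small nuclear or nucleolar RNAs, Rnu2 (-2.30), Rnu3b1 (-1.78) and Snora74a (-1.30) fell. Rnu12, of the minor spliceosome, differed by -0.52 without passing. For Rnu2 the groups nearly met, with 4-week replicate B at -0.71 and 8-week replicate A at -0.73. For Rnu3b1 they overlapped, at 1.46 and 1.60 on the same arrays, and its call was lost with quantile normalization and without 4-week replicate A. The groups of Snora74a overlapped too, and its call was lost without 8-week replicate A and without 4-week replicate A.

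Among the 4 lncRNA probes with the largest rises and the 4 with the largest falls, 1 of each lay on chromosome 18. The probe of chr18:3003075-3016150 was above background on no 4-week array and was at least 8.88-fold higher at 8 weeks, and of the other 3 probes of its locus 1 rose by 2.15, 1 differed by 0.12 and 1 was above background on a single 8-week array. The probe of chr18:63222554-63223369 was above background on no 8-week array and was at least 6.5-fold lower. Of the others of its locus, 1 was at least 2.7-fold lower and 1 differed by -1.1 without passing.

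**Figure D3:**
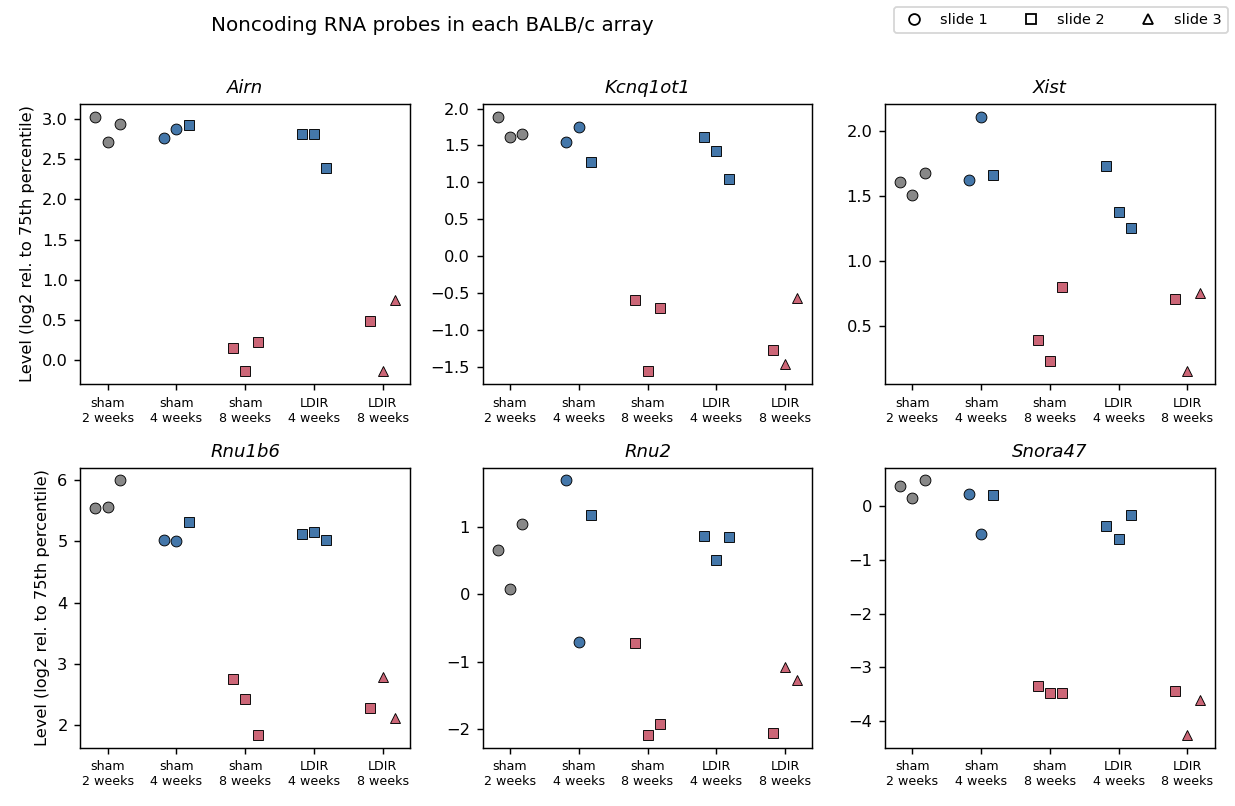
Level of 6 noncoding RNA probes on each of the 15 BALB/c arrays of 5 groups, as log2 relative to the array's 75th percentile; the marker shape gives the slide and the colour the time (grey 2, blue 4, red 8 weeks). For Airn, sham replicate C at 4 weeks (slide 2) lies with the 4-week arrays of slide 1, at 2.92, and the 8-week sham arrays on its own slide lie between -0.14 and 0.22.

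Slide 2 held both times, so that these probes could be compared within it. On slide 2 alone, with the 3 8-week arrays against 4-week replicate C, 105 of 106 named probes kept their direction, the exception being Wnt4. Most named probes were chosen by their change on arrays that include these, so their direction in this comparison was largely fixed in advance. That comparison has 1 array at 4 weeks, and 53 of the 106 kept their side of the thresholds. The 24-array fit with the slide term gives the same changes with a pooled error. Its changes were -2.84 for Airn, -2.23 for Kcnq1ot1, -3.63 for Snora47, -2.18 for Cox8b, -2.30 for Ppargc1a, 2.1 for Fkbp5 and 2.73 for Bub1b, each past the thresholds. Areg (-3.16) and Esr1 (-1.49) passed there too, while Cidea (-1.80), Top2a (2.16) and the named muscle genes did not.

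Of the lncRNA probes with the largest rises, 3 lay at 2 loci near the start of chromosome 16, chr16:3111550-3130500 and chr16:3337275-3355950. The first locus was read by 2 of them. Their sequences are shown because they bear on whether the loci can be told apart. Letters in capitals stand in both of the first 2 probes as listed in the files.
chr16:3111550-3130500, probe at chr16:3115694-3115753 (- strand): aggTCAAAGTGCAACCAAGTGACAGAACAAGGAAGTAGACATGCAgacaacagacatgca
chr16:3337275-3355950, probe at chr16:3350838-3350897 (+ strand): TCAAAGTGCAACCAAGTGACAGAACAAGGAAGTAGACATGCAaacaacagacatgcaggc
chr16:3111550-3130500, second probe at chr16:3115830-3115889 (- strand): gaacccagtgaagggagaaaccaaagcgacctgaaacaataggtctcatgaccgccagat
Shifted against each other, the first 2 probes had 56 of 57 bases in common, so their signals cannot be assigned to 1 locus. A further probe that shared at least 20 bases with a rising probe, at chr2:181650800-181669350, rose by 3.12.

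The first chromosome 16 probe read -5.97, -7.77 and -5.10 at 4 weeks and -1.69, -2.81 and -2.60 at 8 weeks (3.91, SE 0.72, adjusted p = 0.126). It was above background on 1 array at 4 weeks, and with normexp background correction the change was 1.03. Its near copy was above background on no 4-week array and was at least 4.99-fold higher at 8 weeks, and the second probe of the first locus at least 5.99-fold higher. Other probes of the same loci changed less, by 2.37 for the 1 other probe of chr16:3111550-3130500 and by 1.03 to 1.73 for 3 of the 4 of chr16:3337275-3355950, the other being above background on no array.

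Of the lncRNA probes with the largest falls, 3 are shown by sequence so that the transcripts can be identified, with no letters marked.
chr9:65651848-65652920, probe at chr9:65651850-65651909 (- strand): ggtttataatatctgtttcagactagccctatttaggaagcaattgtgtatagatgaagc
chr5:152029557-152030218, probe at chr5:152029886-152029945 (- strand): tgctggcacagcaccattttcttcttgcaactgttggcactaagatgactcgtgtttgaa
chr8:26347473-26348052, probe at chr8:26347712-26347771 (- strand): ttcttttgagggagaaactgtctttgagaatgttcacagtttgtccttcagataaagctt
The chromosome 9 probe was at least 3.23-fold lower at 8 weeks, where it was above background on no array, after -3.82, -4.07 and -3.60 at 4 weeks. The chromosome 5 probe read -0.72, -2.33 and -2.24 against -6.51, -5.16 and -4.48 (change -3.62, SE 0.67, adjusted p = 0.126). The chromosome 8 probe, above background on 1 array at 8 weeks, changed by -3.53 (-1.34 with normexp background correction). The other 2 probes of its locus changed by -2.67 and -3.10. Of the 8721 lncRNA probes above background on all 3 arrays of either time, 15.3% fell and 2.97% rose, with a median of -0.16. Of the 28761 such coding probes 9.97% fell and 7.85% rose, with a median of 0.00.

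Among the largest coding falls, 4 probes had runs of 2 alternating bases in common. The 12 coding genes with the largest falls included Tbx22 (a palate transcription factor), Syn3 (a synapsin), St6galnac1 (a sialyltransferase) and Rabgap1. The longest run of alternating G and A of each probe is in capitals in a stretch of 30 bases, with letters as the files list them. Any shorter run is left in lower case. The runs are shown because other probes of these genes hold none.
Tbx22 (probe at chrX:104881102-104881161, + strand, bases 31 to 60): aaggaaagagaaAGAGAGAGAGAGAGAGAG
St6galnac1 (chr11:116626566-116626625, - strand, bases 31 to 60): gagagagagagaggGAGAGAGAGAGAGAGA
Syn3 (chr10:85586568-85586627, - strand, bases 31 to 60): aaagagagagaaaagGAGAGAGAGAGAcag
Rabgap1 (chr2:37351140-37351199, + strand, bases 23 to 52): gagtgagtcAGAGAGAGAGAGgaggaaaac
The St6galnac1 probe was bright, at 5.78, 5.72 and 6.24 at 4 weeks and 4.03, 2.26 and 2.81 at 8 weeks (change -2.88). The second St6galnac1 probe, without a run, changed by -0.24 and did not pass. Of the other 3 Syn3 probes, 2 differed by -0.17 and 0.36 without passing, and the other, like the second probe of Tbx22, was above background on no array. Of the other Rabgap1 probes 1 changed by -0.67 and 1 by -0.05.

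Across the array, 29 probes held a run of at least 12 bases of alternating G and A (GAGAGAGAGAGA or AGAGAGAGAGAG). All 29 were lower at 8 weeks, 21 of them past the thresholds (72.4%), with a median of -1.81. Their median level was 3.57, 3.32 and 4.02 on the 4-week arrays and 2.22, 1.93 and 1.93 on the 8-week arrays. On the 2-week sham arrays it was 2.32, 2.74 and 4.04, so it also varied between arrays of 1 time. The 23 other probes of the same genes had a median of -0.02, with 3 rising and 2 falling. Runs of C and T on the probe, which are the other strand of a GA run, were found in 21 probes, all higher at 8 weeks, of which 8 rose and 0 fell (median 0.57). Among 122 probes with runs of G and T, 55 fell and 0 rose (median -0.60), and among 62 with runs of C and A, 1 fell and 2 rose (median 0.07).

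More broadly, 114 probes held at least 25 purines (A or G) in a row, and 78 of these fell (68.4%) and 0 rose (median -1.43). The brightest Pigr probe was one of them. Its gene encodes the receptor that carries antibodies into milk, but all 60 bases of the probe are purines, ending in AAGAAGAAGAAGAAGAAGAAGAAGAAGAAG, and the files place it on chromosome 13, while RefSeq has the gene on chromosome 1. It fell by 1.64, and the second Pigr probe differed by 1.27 in the other direction without passing. For these 5 genes the change of the probe is therefore not given as a change of the gene. Of the genes counted in the lists above, Pigr was the 1 read by a probe with a purine stretch or a GA run. The list genes were not screened for runs of G and T. These groups of probes were chosen after the values were seen, and what was bound to them was not tested.

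**Figure D4:**
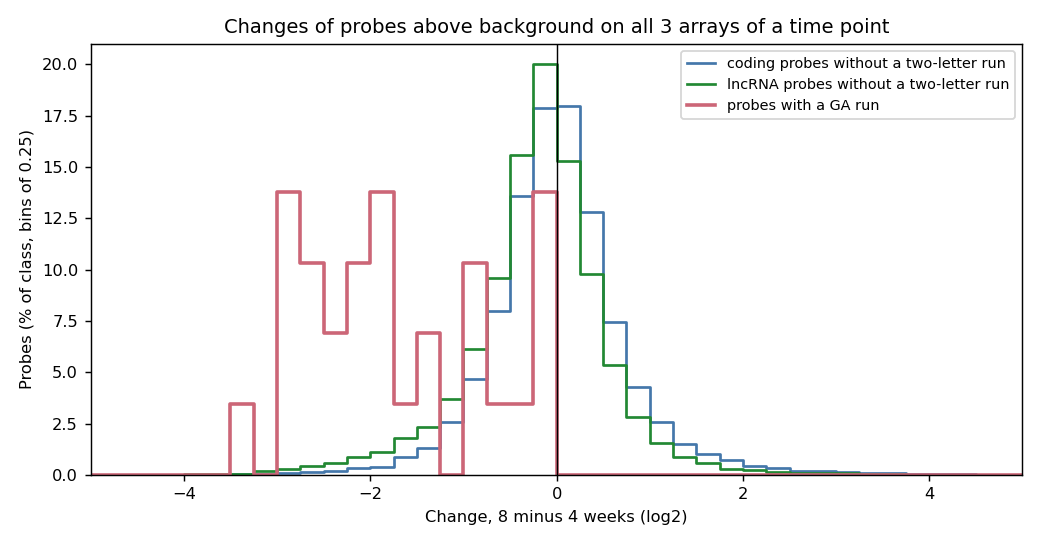
Distribution of the change between 4 and 8 weeks (log2, bins of 0.25) for probes above background on all 3 arrays of either time, as a percentage of each class: coding probes (blue) and lncRNA probes (green) without a 2-letter run, and the 29 probes with a GA run (red). Every probe with a GA run lies below 0, with a median of -1.81, while the coding probes centre on 0.

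The LDIR mice of the same strain were collected at the same 2 times and share no array with the sham comparison. At 8 against 4 weeks after LDIR, 11630 probes passed the thresholds (20.9%), 2289 higher (4.11%) and 9341 lower (16.8%), and 167 reached an adjusted p under 0.05 (0.3%). Of the sham calls 48.1% were also called after LDIR in the same direction, and of the LDIR calls 31.6% were also sham calls in the same direction. Only 65 probes were called in opposite directions. Slide 2 held the 4-week LDIR arrays and 8-week LDIR replicate A, and slide 3 the other 8-week LDIR arrays. After LDIR, Airn changed by -2.30, Kcnq1ot1 by -2.46, Snora47 by -3.38 and Rnu1b6 by -2.70, and 22 of the 29 probes with a GA run fell.

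Over all genes, 5.64% rose and 10.5% fell after LDIR, 16.1% in all, with a median of -0.10. Of the cell cycle genes 10 of 29 rose after LDIR (median 1.09), Bub1b by 2.43. White adipocyte genes had a median of -0.54 and brown adipocyte genes of -1.30, with 2 genes of each list falling. Both lists were lowest at 8 weeks on LDIR replicate B, with white adipocyte means of 6.93, 5.48 and 6.80 and brown adipocyte means of 0.32, -2.34 and -0.75 on replicates A, B and C. That array also held the lymphocyte RNA, with a T lymphocyte mean of 3.79 against -1.47 and -1.63. Areg fell by 3.76 after LDIR. Of the macrophage genes 0 rose and 4 fell (median -0.20), and of the glucocorticoid-induced genes 3 rose and 1 fell. Immediate early genes showed 12 of 16 rising after LDIR, with a median of 2.02, against 3 of 16 in sham mice.

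In 1 fit of the 12 arrays the change after LDIR was set against the change in sham mice. No probe differed at an adjusted p under 0.05 (the smallest was 0.202), 2426 had an unadjusted p under 0.05, and 2421 passed the thresholds (4.35%), 0.458% with a higher and 3.89% with a lower change after LDIR. The lower share of these calls was 89.5%, and with quantile normalization it was 52.8% of 1973. Of the 12 macrophage genes 6 passed in this test, of 23 interferon-stimulated genes 7, and of 16 immediate early genes 6. Of the cell cycle and brown adipocyte genes 0 passed. These unadjusted calls do not show that the remaining genes changed alike.

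**Figure D5:**
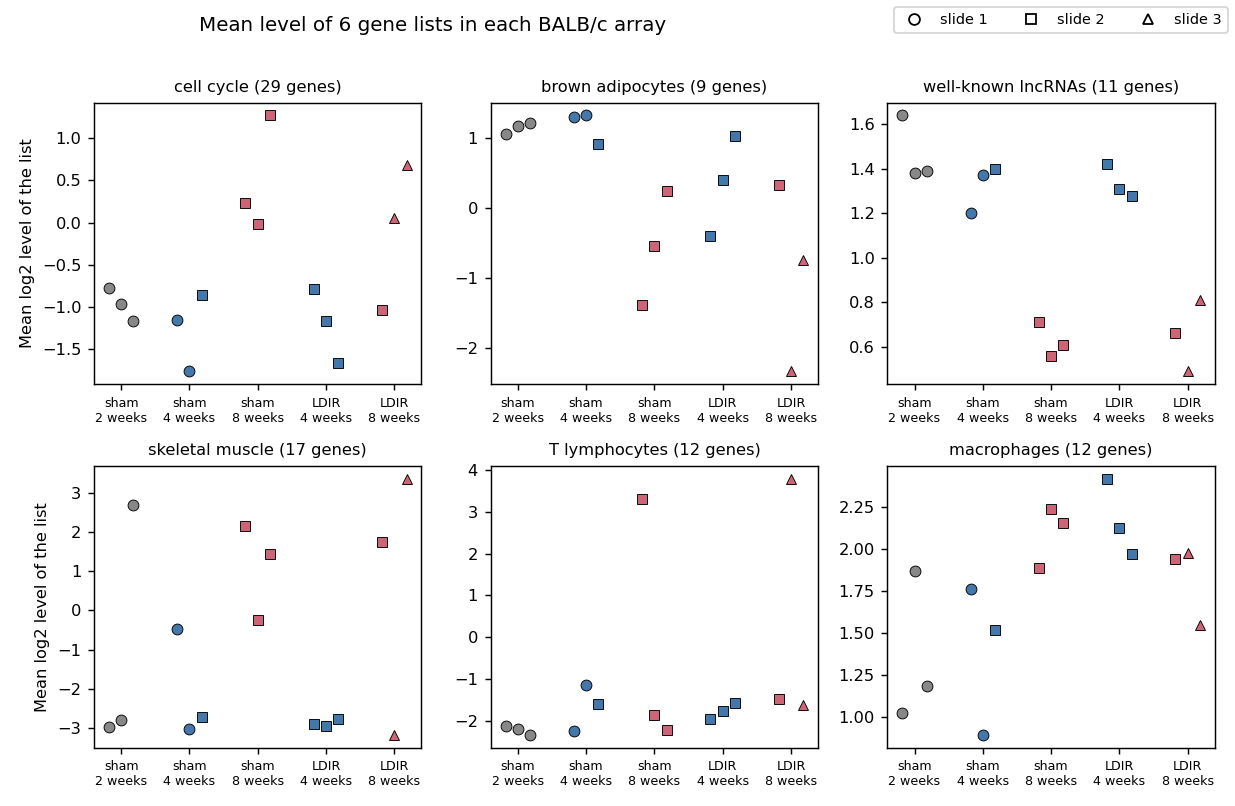
Mean log2 level of 6 gene lists on each of the 15 BALB/c arrays of 5 groups; the marker shape gives the slide and the colour the time (grey 2, blue 4, red 8 weeks). Well-known lncRNAs separate 8 weeks from the earlier times with and without LDIR, T lymphocyte genes stand out on 1 array of each 8-week group, and muscle genes vary between arrays of a group.

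The sham arrays at 2 weeks give an earlier time, from glands of mice 2 weeks younger than those at 4 weeks, all on slide 1. They lay near the 4-week arrays for 4 of the RNAs that fell. Airn read 3.03, 2.72 and 2.94 at 2 weeks, Snora47 0.38, 0.15 and 0.48, Cox8b 5.87, 5.88 and 6.10, and Ppargc1a 0.41, 0.92 and 0.75. Elovl3, which also fell, read -4.01, -7.33 and -3.63 at 2 weeks, against -3.19, -0.88 and -3.10 at 4 weeks and -5.49, -5.06 and -5.18 at 8 weeks, so its 2-week arrays were below the 4-week arrays. Bub1b read -3.65, -4.13 and -4.13 and Cdkn1a -1.99, -0.95 and -2.22. The mean level of the cell cycle list was -1.16 to -0.77 at 2 weeks, -1.76 to -0.86 at 4 weeks and -0.01 to 1.27 at 8 weeks.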

How the data were processed

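RNA of each gland was hybridised in 1 colour to an Agilent SurePrint G3 array with 39430 coding RNA and 16251 lncRNA probes. Per the file headers, the deposited intensity values are background-subtracted and detrended by Agilent Feature Extraction 10.10.1.1. The authors also deposited log2 values normalized to the 75th percentile and centred on each probe's median, which served as an alternative (99.8% within 0.01 of the values used here after the same centring). Outlier spots were dropped, spots of a probe averaged, and log2 intensity minus the array's 75th percentile was compared with limma 3.58.1 in R 4.3.3, 8 minus 4 weeks, on 6 arrays. The thresholds and the percentile scaling follow the study. The scripts were tested on simulated data, and figures were drawn with matplotlib 3.10.9. Coordinates are mm9, as in the files. A fold change of a probe above background on no array of a group is given as a bound. Precision is set by the 3 arrays of a group, and the p-values measure the spread between these arrays.

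Named genes were the 12 largest rises and 12 largest falls of coding genes and 4 of each of lncRNA probes (past the thresholds, detected throughout the brighter group, groups not overlapping), up to 4 called members of each of 30 gene lists (431 genes, 426 with a probe), and Pgr, Areg, Wnt4, Tnfsf11, Greb1, Csn2 and Wap. Other list members are given as examples chosen after their values were seen. The groups and lists were chosen with earlier results of these data known. Alternatives were normexp correction (offset 50), quantile normalization, outlier spots kept, detected probes, 24 arrays in 1 fit, slide or replicate as a block, the methods' t-test, and each array left out; fits of slide 2 alone and of slide as a block over 12 arrays were added after the data were seen. Promoters and gene chromosomes are from RefSeq (GRCm38.p6). Of 31092 coding probes with both, 119 are placed by the files on another chromosome than their gene in RefSeq.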

Additional observations from a re-analysis of the deposited data

Results flagged for a closer look

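For 14 named probes the change from 4 to 8 weeks after LDIR differed from that in sham mice in the test of the difference itself (limma, 12 arrays, unadjusted p under 0.05 and over 1.5-fold), a test that 4.35% of all probes passed. All had an adjusted p of 0.986, and the median difference of all probes was -0.21. Most of the named probes were chosen for their change in sham mice, which leans the difference the other way, and it opposed the sham change for 13 of the 14, all but Ier2. The share over all probes is therefore no fair background for them. The values are the LDIR change minus the sham change, on the log2 scale.

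The difference was -1.46 for C1qa, -1.23 for C1qb and -0.91 for Cd68 among macrophage genes, and -1.98 for Oas3, -1 for Irf7 and -1.43 for Oasl1 among interferon-stimulated genes. Ccl8 had the largest difference of the 14, -2.42, since it rose by 1.26 in sham mice and changed by -1.15 after LDIR. Fkbp5 rose by 1.83 in sham mice and changed by 0.05 after LDIR (difference -1.78), and Greb1 differed by -1.08.

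In the other direction, Ier2 rose more after LDIR (1.56), and Bhlhe40 (1.54) and Adrb3 (1.34) fell in sham mice and changed by 0.44 and -0.40 after LDIR. 5031434C07Rik (1.17) fell in both, more in sham mice. The value for the lncRNA at chr9:65651848-65652920 (1.74) rests on signals below background, since the probe was above it on no sham array at 8 weeks, and is not a measured difference. Slides are uneven here: 2 of the 3 LDIR arrays at 8 weeks lay on slide 3, which held no other array of the 12.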

How the results depend on the processing

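The main counts were 5700 coding and 1933 lncRNA probes past the thresholds and 0 at an adjusted p under 0.05. The coding count was 2165 with slide as a block in the 6-array fit, 3552 with slide as a block over 12 arrays and 1377 on slide 2 alone. The lncRNA count was 1030 with normexp, 1110 with slide as a block in 6 arrays and 729 on slide 2 alone. Leaving out each array gave 3793 to 7695 coding and 1421 to 3186 lncRNA probes. The count at an adjusted p under 0.05 was 900 with normexp, 258 with quantile normalization, 1219 among detected probes, 3494 with all 24 arrays in the fit, 267 with slide as a block there, and 0 to 1266 with each array left out. The highest of these came without 8-week replicate A. The test of the LDIR difference gave 8 probes with slide as a block and 0 to 6 with each array left out. With slide as a block the change is that against 4-week replicate C alone, so these fits rest on fewer 4-week arrays; the cause of the other differences was not tested. Normexp moved the median change of all probes from 0.07 to -0.15.

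Same-letter arrays did not deviate together (correlations of -0.0728, 0.0780 and -0.133 for A, B and C), so the letters do not pair them. With the replicate block 3948 coding and 1564 lncRNA probes passed and 0 had an adjusted p under 0.05, and 91 of 106 named probes kept their side of the thresholds. Of the 100 named probes past the thresholds, 64 stayed past with any array left out. The sign turned for Wnt4 with slide as a block (-0.18 over 6, 12 and 24 arrays and on slide 2 alone) and for Wap with normexp (-0.11) and quantile normalization (-0.26). With 1 array left out at a time Wnt4 ranged from -0.16 to 0.28, below 0 without 4-week replicate B, 8-week replicate B or 8-week replicate C. Wap ranged from -0.38 to 0.96, below 0 without 8-week replicate B and at 0 without 4-week replicate B.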
